A study of Rattus norvegicus with 8 samples.

Results

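The genes described here carry fatty acids into mitochondria and peroxisomes, oxidize them there, make ketone bodies from the products, or respond to PPARA. They were taken from a list of 39 symbols, each represented by the probe set with that single symbol and the highest mean over 8 arrays. All 39 had a probe set, out of 14217 genes with one on the array, and all 39 exceeded the signal level set for testing. The liver samples came from male Sprague-Dawley rats, an outbred strain, aged 8 weeks. The hydrogen water group had drunk water containing 0.7 mM dissolved molecular hydrogen for 4 weeks, and the control group sterilized distilled water for 4 weeks. All rats ate the same commercial diet ad libitum, and no other treatment is labelled. The study kept 8 animals per group, and 4 arrays per group were analysed here. The labels do not tie arrays to animals or say whether RNA was pooled, so p-values reflect only how far these arrays spread, which may be technical. The question was how hepatic transcripts of these pathways differed after hydrogen water.

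Long-chain fatty acids enter mitochondria as carnitine esters, and carnitine palmitoyltransferase 1A (Cpt1a) controls that entry. Acyl-CoA dehydrogenases, hydratases, hydroxyacyl-CoA dehydrogenases and thiolases then remove acetyl-CoA units in a cycle. In the fasted liver much of that acetyl-CoA leaves as ketone bodies. Peroxisomes shorten very long, branched and dicarboxylic chains by a parallel route. PPARA is a nuclear receptor that binds fatty acids, pairs with RXR and induces many of these genes in rodent liver.

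Between the groups 28 of the 39 genes differed by less than 0.15 on the log2 scale and 9 by more than 0.3, and a single member passed the test. Pex11a, which promotes the elongation and division of peroxisomes, rose 1.61-fold with hydrogen water. The other 38 did not pass an adjusted p of 0.05 in limma. The background was 0.825% of 15521 tested probe sets called in either direction and 0.445% called higher. At an unadjusted p under 0.05 there were 5 members, 3 higher and 2 lower, a share of 12.8% against 12.5% of all tested probe sets, of which 6.08% were higher and 6.46% lower. The groups did not overlap at 2 members, Pex11a and Acot12, both higher, against a background of 7.48%, made up of 3.85% higher and 3.63% lower. The median difference of the 39 was 0.00 on the log2 scale, equal to the median of 0.00 over all tested probe sets, and 20 lay above 0 and 19 below. The plot of differences by role shows the narrow mitochondrial block and the wider scatter of Ppara and the members outside the organelles.

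**Figure D1:**
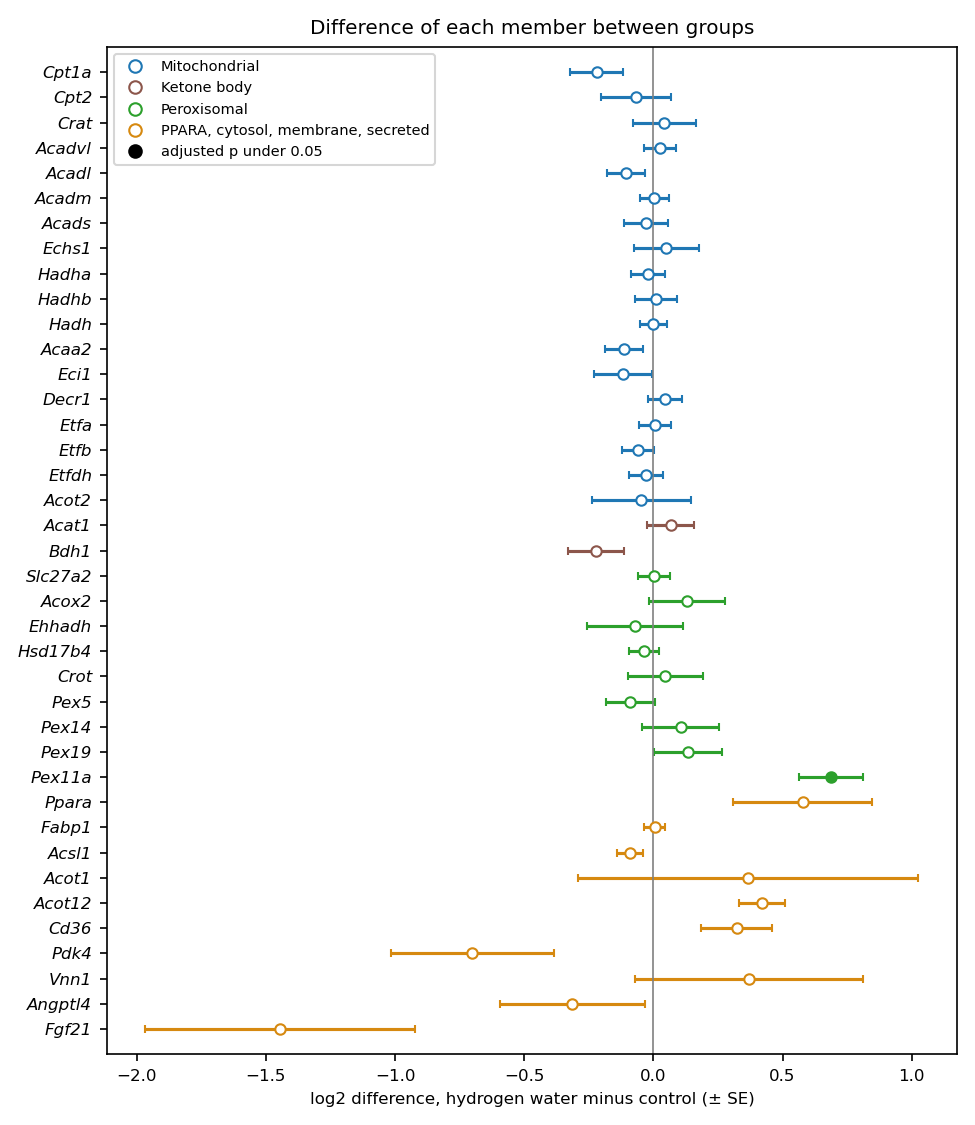
Difference of each member in log2 signal, hydrogen water minus control (x axis), for the 39 genes in 4 role groups (colours), with the SE of the limma fit as bars. The filled point is Pex11a at 0.69, the single member with an adjusted p under 0.05, and the lowest point is Fgf21 at −1.44.

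Promoter sequence is shown for 4 members that span the range of responses: Pex11a, which rose, Acot12, with the next smallest p, Fgf21, with the largest difference below 0, and Fabp1, a PPARA target with a difference of 0.00. Each stretch covers 250 bases before to 50 after the RefSeq gene start on build GRCr8, on the gene's own strand. Capitals mark matches, on either strand, to the nuclear receptor half-site AGGTCA or to a spaced repeat, a relaxed form of the direct repeat that PPARA and RXR bind. The repeat searched was GGNCA, any base, A, and GGNCA again, with N for any base. The matches in Fabp1 overlap each other.
Pex11a, chr1:143096442-143096741, minus strand: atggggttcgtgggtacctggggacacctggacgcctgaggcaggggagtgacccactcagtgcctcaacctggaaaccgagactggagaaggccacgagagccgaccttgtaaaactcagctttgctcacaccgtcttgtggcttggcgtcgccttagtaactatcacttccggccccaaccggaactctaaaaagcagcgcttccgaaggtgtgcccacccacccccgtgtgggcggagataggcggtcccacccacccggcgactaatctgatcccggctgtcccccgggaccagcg
Acot12, chr2:24721709-24722008, plus strand: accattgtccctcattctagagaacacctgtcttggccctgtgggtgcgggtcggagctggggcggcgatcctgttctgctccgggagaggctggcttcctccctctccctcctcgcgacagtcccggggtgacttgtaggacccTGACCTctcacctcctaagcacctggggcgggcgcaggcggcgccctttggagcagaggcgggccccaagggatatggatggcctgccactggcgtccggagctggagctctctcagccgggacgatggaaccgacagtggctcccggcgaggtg
Fgf21, chr1:105221327-105221626, minus strand: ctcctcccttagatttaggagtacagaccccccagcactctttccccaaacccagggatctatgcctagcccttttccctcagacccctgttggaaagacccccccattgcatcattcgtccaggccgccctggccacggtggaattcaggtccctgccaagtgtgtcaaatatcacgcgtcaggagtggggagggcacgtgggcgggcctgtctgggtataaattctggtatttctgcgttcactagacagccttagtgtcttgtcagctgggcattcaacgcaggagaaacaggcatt
Fabp1, chr4:104749090-104749389, plus strand: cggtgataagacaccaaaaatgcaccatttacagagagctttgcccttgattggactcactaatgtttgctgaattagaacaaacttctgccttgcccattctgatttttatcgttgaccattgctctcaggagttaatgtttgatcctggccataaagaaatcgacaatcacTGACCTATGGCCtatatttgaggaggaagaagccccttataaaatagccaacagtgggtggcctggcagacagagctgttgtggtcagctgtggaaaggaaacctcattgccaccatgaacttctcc

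The half-site was found in 8 of 35 member promoters with an entry, or 22.9%, against 16.2% of 33469 promoters. The spaced repeat was found in 1 of the 35, that of Fabp1, against 0.804% of all promoters. In Fabp1 it lies 66 to 77 bases before the start, and the half-site in Acot12 lies 100 to 105 bases before the start. The windows of Pex11a and Fgf21 hold neither string of letters. A match here describes sequence and is no measured binding site.

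Signals below are log2 values after quantile normalization, which gives the arrays the same distribution, with 2.05 added before taking logs. Signals of different genes come from different probes and are not set against each other. The hydrogen water arrays were dimmer as deposited, with a 2% trimmed mean signal of 91.5 ± 10.4 against 115 ± 18.7 for control arrays (SD, n = 4 each). An exact permutation test, two-sided, gave p = 0.114, and the smallest p it allows is 0.0286. Spiked-in transcripts were also dimmer, with a mean log2 signal of 9.05 ± 0.08 against 9.44 ± 0.30 for control arrays (SD, n = 4 each). The same exact test gave p = 0.0857 for them. The log2 ratio of 3′ to 5′ Gapdh probe sets, a sign of RNA integrity, was 0.38 ± 0.08 with hydrogen water and 0.22 ± 0.10 in controls (SD, n = 4 each), with p = 0.0571 in the same exact test. The part of this ratio in the results was not tested. Of 9 measured hepatocyte markers, including Alb and Ttr, all 9 were above the testing level and 0 passed in limma, with 0 at an unadjusted p under 0.05. Of 5 adipocyte markers, Adipoq, Plin1, Fabp4 and Lep were below that level, and Cidec, above it, had a log2 signal of 9.30 ± 0.31 with hydrogen water and 9.12 ± 0.24 in controls (SD, n = 4 each). The summed signal of the 5 was 521 to 839 with hydrogen water and 457 to 687 in controls. In whole liver, fewer cells of a type and less RNA per cell cannot be told apart.

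The mitochondrial members were the least variable. None of the 18 passed, 0 had an unadjusted p under 0.05, and 17 differed by less than 0.15 on the log2 scale, against 54.6% of all tested probe sets. Their median difference was −0.02, with a range of −0.22 to 0.05, and the median was 0.08 when arrays were scaled by spiked-in transcripts. The median SD within groups was 0.11, against 0.22 over all tested probe sets. These members were bright, with control means from 8.40 (Crat) to 12.44 (Acaa2), while the testing level was 4.42. They were not compared with probe sets of like signal, and the part of signal level in their narrow spread was not tested.

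Cpt1a, the gatekeeper of mitochondrial entry, had log2 signals of 11.72, 11.90, 11.38 and 11.69 on the hydrogen water arrays, against 11.79, 12.05, 11.86 and 11.87 on the control arrays. The groups overlapped through hydrogen water array 2. The difference was −0.22 ± 0.10 (SE, adjusted p = 0.419 in limma), and a second probe set gave −0.11 ± 0.16. It was −0.47 with no normalization and −0.083 with spike-in scaling. The inner-membrane partner Cpt2 differed by −0.07 ± 0.14 (SE) and Crat, which acts on short-chain acylcarnitines, by 0.04 ± 0.12.

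The acyl-CoA dehydrogenases carry out the first oxidation step and divide the work by chain length. Very long-chain Acadvl differed by 0.03 ± 0.06 (SE), long-chain Acadl by −0.11 ± 0.07, medium-chain Acadm by 0.00 ± 0.06 and short-chain Acads by −0.03 ± 0.09. Acadm lay between 12.31 and 12.44 on the hydrogen water arrays and between 12.30 and 12.44 on the control arrays, so the groups covered nearly the same range. The electron carriers that take electrons from these enzymes to the respiratory chain were as close. Etfa differed by 0.01 ± 0.06, Etfb by −0.06 ± 0.06 and their ubiquinone oxidoreductase Etfdh by −0.03 ± 0.07.

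The later steps of the cycle showed the same closeness at the chosen probe sets. The trifunctional protein subunits Hadha and Hadhb differed by −0.02 ± 0.06 and 0.01 ± 0.08 (SE), and the short-chain hydroxyacyl-CoA dehydrogenase Hadh by 0.00 ± 0.05. A dimmer probe set of Hadha differed by 0.59 ± 0.14 without overlap between groups and did not pass (adjusted p = 0.0824 in limma). The hydratase Echs1 differed by 0.05 ± 0.12 and the thiolase Acaa2 by −0.12 ± 0.07. Decr1, which handles polyunsaturated chains, differed by 0.04 ± 0.07. The matrix thioesterase Acot2 differed by −0.05 ± 0.19, and its 2 further probe sets by −0.11 ± 0.15 and −0.24 ± 0.38. Eci1, the isomerase for unsaturated chains, had signals of 12.43, 12.50, 11.94 and 12.36 on the hydrogen water arrays and 12.44, 12.56, 12.29 and 12.40 on the control arrays. The third hydrogen water array was its lowest value, and the difference of −0.12 ± 0.11 became 0.0057 without that array and 0.06 with spike-in scaling.

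Ketone body enzymes were represented by 2 members, and neither passed. Acat1, the thiolase that makes acetoacetyl-CoA, had signals of 11.15, 10.97, 11.02 and 11.10 with hydrogen water and 10.96, 11.23, 10.99 and 10.80 in controls. The control range enclosed the hydrogen water range, and the difference was 0.07 ± 0.09 (SE, adjusted p = 0.837 in limma), with the opposite sign when no normalization was applied. Bdh1, which interconverts acetoacetate and 3-hydroxybutyrate, had signals of 10.21, 10.35, 9.83 and 10.07 with hydrogen water and 10.31, 10.38, 10.21 and 10.46 in controls. Hydrogen water arrays 3 and 4 lay below all controls and the other 2 among them. The difference was −0.22 ± 0.11 (adjusted p = 0.438), and a second probe set gave −0.27 ± 0.11 (adjusted p = 0.357). With no normalization it was −0.53 and with spike-in scaling −0.14.

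Among the peroxisomal members Pex11a rose and the other 8 did not pass. Pex11a had signals of 9.86, 9.87, 10.01 and 9.96 on the hydrogen water arrays, against 9.35, 9.25, 8.86 and 9.50 on the control arrays. The hydrogen water arrays lay close together, and the lowest of them was above the highest control. The difference was 0.69 ± 0.12 (SE, adjusted p = 0.0319 in limma), and a second probe set differed by 0.63 ± 0.20 without passing (adjusted p = 0.195). On that second probe set hydrogen water array 2, at 8.03, lay below control arrays 1 and 2, at 8.07 and 8.15.

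The Pex11a call held in 3 of 8 fits that left out 1 array. It was lost without control array 1 (adjusted p = 0.0548), control array 2 (0.0886), hydrogen water array 1 (0.0795), hydrogen water array 3 (0.0937) or hydrogen water array 4 (0.0918), while the difference stayed between 0.56 and 0.77. It was also lost with no normalization (0.37, adjusted p = 0.188), with the brightness of the array as a covariate (0.57, adjusted p = 0.251), with no trend in the prior (adjusted p = 0.0862) and with probe sets averaged by gene (0.66, adjusted p = 0.0684). Before normalization the deposited signals overlapped, at 719 to 995 on hydrogen water arrays and 551 to 826 on control arrays.

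The rest of the peroxisome machinery lay near 0. The receptor Pex5, which brings matrix enzymes to the organelle, differed by −0.09 ± 0.09 (SE), its docking partner Pex14 by 0.11 ± 0.15 and the membrane protein chaperone Pex19 by 0.13 ± 0.13. Pex19 signals were 7.24, 6.87, 7.08 and 7.47 with hydrogen water and 7.03, 6.98, 7.12 and 7.00 in controls, so that hydrogen water arrays held both the highest and the lowest values. The Pex19 difference turned to −0.23 with no normalization.

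Peroxisomal enzymes also differed by less than their spread. Ehhadh, the bifunctional enzyme and a strong PPARA target in rodents, had signals of 11.98, 11.91, 11.21 and 12.06 with hydrogen water, against 12.02, 12.07, 11.45 and 11.90 in controls. In each group the array numbered 3 was the low one, and the rest lay between 11.90 and 12.07. The difference was −0.07 ± 0.19 (SE, adjusted p = 0.931 in limma), 0.12 without hydrogen water array 3 and 0.06 with spike-in scaling. Hsd17b4, the other bifunctional enzyme, differed by −0.04 ± 0.06, and Acox2, an oxidase for bile acid precursors, by 0.13 ± 0.15. Crot, which exports shortened chains as carnitine esters, differed by 0.05 ± 0.15, and Slc27a2, which activates very long chains, by 0.00 ± 0.06. The peroxisomal median was 0.05, 0.16 with spike-in scaling and −0.23 with no normalization.

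Ppara and the members outside these organelles differed by −1.44 to 0.58, while Pex11a, at 0.69, had the highest difference of the 39. Of these 10, 0 passed, 4 had an unadjusted p under 0.05 (Acot12, Cd36, Pdk4 and Fgf21), against 12.5% of all tested probe sets, and 8 differed by more than 0.3, against 20.2%. Their median SD within groups was 0.48. Some of them were dim, such as Ppara and Acot1, with control means of 4.92 and 5.05. The part of signal level in this spread was not tested. The plot of 10 members on each array shows how far these spreads reached.

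**Figure D2:**
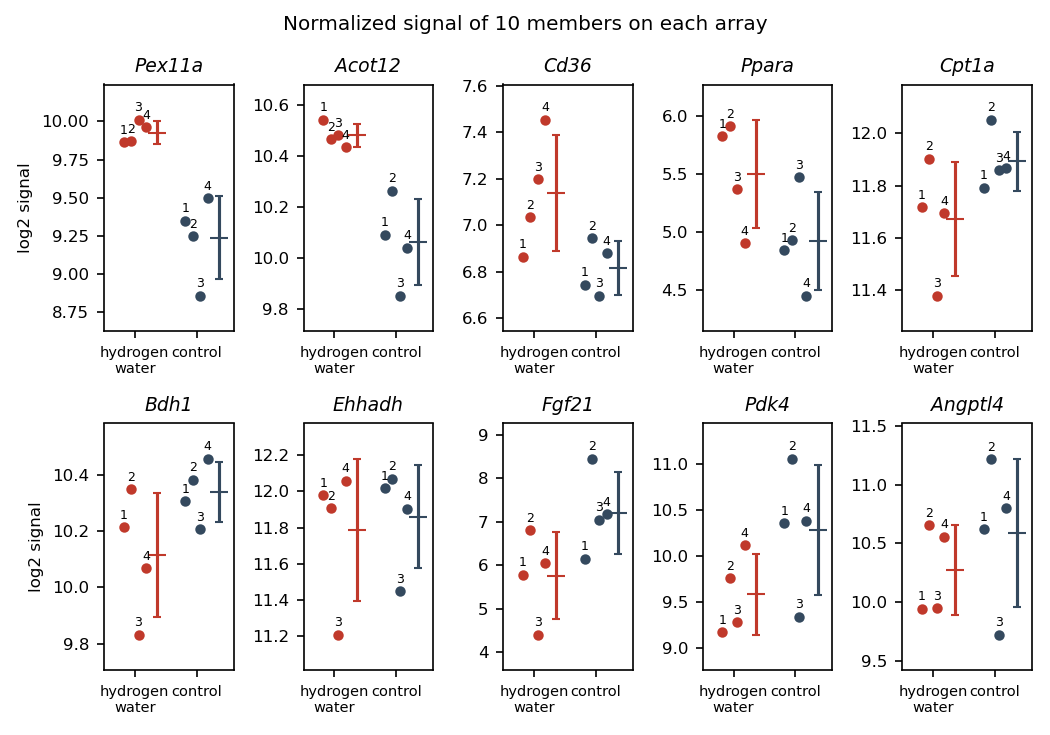
Normalized log2 signal (y axis, a separate scale for each gene) of 10 members on the 4 hydrogen water arrays (red, left) and 4 control arrays (blue, right), with array numbers beside the points and the mean ± SD at the right of each group. The groups do not overlap for Pex11a and Acot12, and they overlap for the other 8.

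Ppara itself gave a dim signal. It was 5.82, 5.91, 5.36 and 4.90 on hydrogen water arrays and 4.84, 4.93, 5.47 and 4.45 on control arrays. Hydrogen water arrays 1 and 2 were above all controls and the other 2 among them, and the difference was 0.58 ± 0.27 (SE, adjusted p = 0.420 in limma), 0.24 with no normalization. Fabp1, the liver fatty acid binding protein whose promoter is printed above, lay between 13.42 and 13.48 on hydrogen water arrays and between 13.42 and 13.46 on control arrays. Acsl1, which activates long-chain fatty acids, differed by −0.09 ± 0.05, and its second tested probe set had the other sign, at 0.12 ± 0.07.

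Acot12, a cytosolic thioesterase that hydrolyses acetyl-CoA, had signals of 10.54, 10.46, 10.48 and 10.43 with hydrogen water, against 10.09, 10.26, 9.85 and 10.04 in controls. Every hydrogen water array was above every control array. The difference was 0.42 ± 0.09 (SE), a ratio of 1.34, and it missed the threshold (adjusted p = 0.0578 in limma). It passed with array weights (adjusted p = 0.0475) and without control array 2 (adjusted p = 0.0441), and missed it without each of the other 7 arrays. With no normalization the difference was 0.12 (adjusted p = 0.563), with array brightness as a covariate 0.28 (adjusted p = 0.410), and the deposited signals overlapped, at 1191 to 1394 with hydrogen water and 1052 to 1354 in controls. The cytosolic Acot1 had a dim and scattered signal, from 3.32 to 6.84 with hydrogen water and from 4.25 to 6.26 in controls. Acot1 and Acot2 are close paralogues, and probes for one may take up RNA of the other.

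Cd36, a fatty acid transporter of the plasma membrane, had signals of 6.86, 7.04, 7.20 and 7.45 with hydrogen water and 6.74, 6.94, 6.70 and 6.88 in controls. The groups overlapped through hydrogen water array 1, and the difference was 0.32 ± 0.14 (SE, adjusted p = 0.368 in limma), −0.03 with no normalization. Cd36 is also made by endothelial cells and macrophages. Of 4 measured endothelial markers 0 passed in limma. Stab2 and Lyve1 had an unadjusted p under 0.05 and higher signals with hydrogen water, at 0.42 ± 0.13 and 0.38 ± 0.13 (SE). Pecam1 and Kdr had lower mean signals with hydrogen water, at −0.04 ± 0.17 and −0.10 ± 0.10. The summed signal of the 4 was 2004 to 2259 with hydrogen water and 1778 to 2082 in controls. Of 6 measured Kupffer cell markers 0 passed, with summed signals of 2670 to 3358 with hydrogen water and 2517 to 3669 in controls. The part of these cells in the Cd36 signal was not tested.

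Fgf21, Pdk4 and Angptl4, which the liver induces in fasting, had lower mean signals with hydrogen water, and none of the 3 passed. They are no full set of fasting genes. Ppargc1a, tied to fasting programmes and described below, went the other way without passing, at 1.02 ± 0.33 (SE). Fgf21, a hormone secreted by the liver under PPARA control, had signals of 5.78, 6.80, 4.40 and 6.04 with hydrogen water, against 6.14, 8.45, 7.04 and 7.17 in controls. The third hydrogen water array was lowest, below the level set for testing, and control array 2 highest. The difference was −1.44 ± 0.52 (SE), a ratio of 0.367, with an adjusted p of 0.271 in limma, and −0.99 without hydrogen water array 3 or −1.03 without control array 2.

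Pdk4, a kinase that shuts off pyruvate oxidation when fat is the fuel, had signals of 9.18, 9.76, 9.28 and 10.12 with hydrogen water, against 10.36, 11.06, 9.34 and 10.39 in controls. Control array 3 lay among the hydrogen water arrays and the other 3 controls above them. The difference was −0.70 ± 0.31 (SE, adjusted p = 0.394 in limma), and a second probe set gave −1.03 ± 0.43 (adjusted p = 0.356). Without control array 2 it was −0.44, and with no normalization it passed (adjusted p = 0.0384), as did Fgf21 at −1.77 (adjusted p = 0.0139). In that setting the median of all tested probe sets was itself −0.33.

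Angptl4, a secreted inhibitor of lipoprotein lipase, had signals of 9.94, 10.65, 9.95 and 10.56 with hydrogen water, against 10.62, 11.22, 9.72 and 10.80 in controls. Control array 3 was the lowest of all 8 and control array 2 the highest. The difference was −0.31 ± 0.28 (SE, adjusted p = 0.729 in limma), −0.11 without control array 2, −0.60 without control array 3 and −0.62 with no normalization. Vnn1, a pantetheinase and PPARA target, had signals of 9.35, 9.61, 7.99 and 9.15 with hydrogen water and 8.81, 9.01, 7.32 and 9.48 in controls, again lowest on the array numbered 3 in each group.

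This spread between arrays of 1 group ran through many of the PPARA targets. Hydrogen water array 3 was the lowest of its group for 21 of the 39 members, or 53.8%, against 28.4% of all tested probe sets. Control array 3 was the lowest of its group for 19 of the 39, or 48.7%, against 24.9%. For 13 members, among them Cpt2, Hadha, Hadhb, Ehhadh, Crot, Fabp1 and Vnn1, array 3 was lowest in both groups, against 9.08% of all tested probe sets. The array number pairs no animals in the labels, and the heat map shows the pattern gene by gene.

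**Figure D3:**
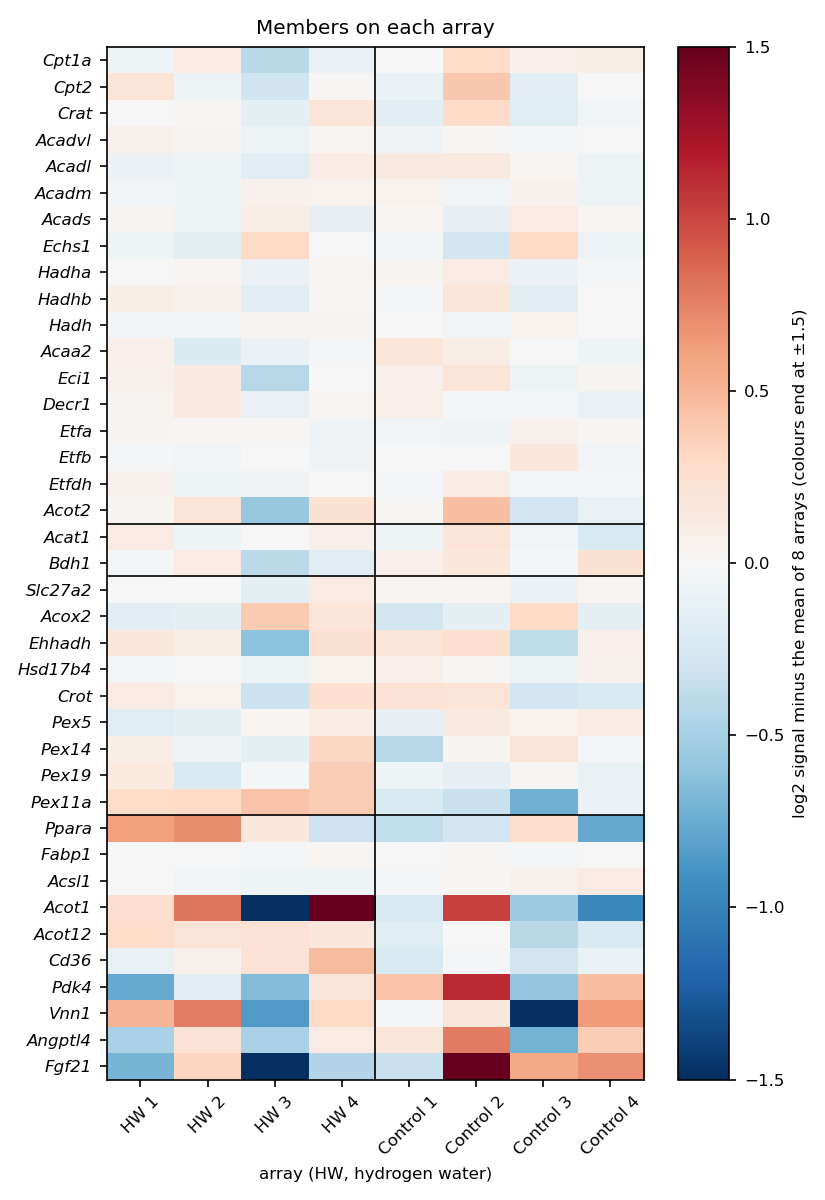
Log2 signal of the 39 members on each array minus the gene's mean over 8 arrays (colour, ending at ±1.5), with hydrogen water arrays (HW) left of control arrays and lines between the role groups, from mitochondrial at the top through ketone body and peroxisomal to PPARA and the rest. Pex11a is red on all 4 hydrogen water arrays and blue on all 4 controls, while Fgf21, Vnn1 and Acot1 vary within both groups.

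The members were also divided into 22 marked as PPARA targets in rodent liver and 17 others. The marking is not a full list of targets, and some of the 17 may also respond to PPARA. The median difference was −0.01 for the targets and 0.01 for the others, and 1 target passed, Pex11a. The targets' mean deviation from their 8-array means was −0.02, 0.12, −0.38 and 0.17 on hydrogen water arrays 1 to 4, against 0.01, 0.31, −0.24 and 0.03 on control arrays 1 to 4. The lowest array of each group was the third. The other 17 members stayed between 0.00 and 0.06 on hydrogen water arrays and between −0.08 and 0.04 on control arrays. Hydrogen water array 3 was lowest in its group for 17 of the 22 targets, or 77.3%, and control array 3 for 14, or 63.6%. Array 3 was lowest in both groups for 10 targets, or 45.5%, and for 3 of the others (Crat, Eci1 and Bdh1), or 17.6%. For the 100 tested genes of the further list described below, hydrogen water array 3 was lowest for 31% and control array 3 for 29%. Array 3 was lowest in both groups for 20% of them. Array 3 was singled out after the values were seen, so these shares describe the arrays and were not tested.

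**Figure D4:**
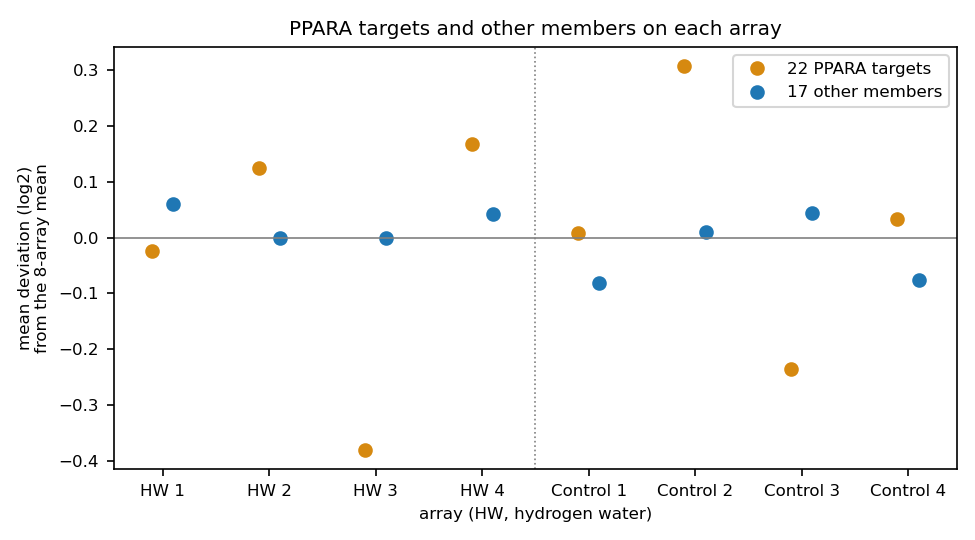
Mean deviation (log2) from the 8-array mean of the 22 PPARA targets (orange) and the 17 other members (blue) on each array, hydrogen water (HW) left and control right. The targets spread from −0.38 on hydrogen water array 3 to 0.31 on control array 2, and the others stay within 0.1 of 0.

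Further genes of the same pathways came from a list of 131 symbols, of which 114 had a probe set and 100 were tested. Of the 100, 0 were called higher and 1 lower, against 0.445% and 0.380% of all tested probe sets, and their median difference was −0.02. Amacr, the racemase that lets peroxisomes handle branched chains and bile acid precursors, fell to signals of 11.80, 11.95, 11.52 and 11.79 with hydrogen water, against 12.28, 12.40, 12.27 and 12.34 in controls. All 4 hydrogen water arrays were below all controls. The difference was −0.56 ± 0.08 (SE, adjusted p = 0.0141 in limma), lost without control array 2 (0.0535) or control array 4 (0.0539), with spike-in scaling (−0.41, adjusted p = 0.195), with no trend in the prior (0.0842) and with array brightness as a covariate (0.129).

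Regulators of PPARA activity on the further list did not pass. The coactivators Ncoa1 and Med1 differed by 0.09 ± 0.12 and 0.13 ± 0.11 (SE), the receptor Rxrb by 0.02 ± 0.18 and the corepressor Ncor1 by −0.12 ± 0.12. Ppargc1b, a coactivator of nuclear receptors, had signals of 6.64, 5.87, 6.63 and 6.02 with hydrogen water, against 5.51, 5.28, 5.56 and 5.21 in controls, a difference of 0.90 ± 0.20 (SE, adjusted p = 0.0675 in limma). The groups did not overlap, and the gene passed with spike-in scaling (adjusted p = 0.0220) and without hydrogen water array 2 (0.0402). Ppargc1b missed the threshold without each of the other 7 arrays and with no normalization (adjusted p = 0.149). With array brightness as a covariate it missed it too, at 0.81 (adjusted p = 0.340). Ppargc1a, which drives mitochondrial and fasting programmes, had 6.57, 5.67, 6.79 and 5.91 with hydrogen water and 4.34, 5.58, 5.83 and 5.11 in controls, a difference of 1.02 ± 0.33 (adjusted p = 0.218). Control array 3 overlapped the hydrogen water arrays. With no normalization Ppargc1b differed by 0.55 and Ppargc1a by 0.68, and with array brightness as a covariate Ppargc1a by 0.57.

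Rxra, the receptor that pairs with PPARA, had signals of 7.56, 7.41, 7.49 and 7.39 with hydrogen water, against 7.27, 6.78, 7.14 and 7.08 in controls. The groups did not overlap, and the difference was 0.39 ± 0.12 (SE, adjusted p = 0.184 in limma). Pnpla2, the lipase that releases fatty acids from stored triglyceride, differed by 0.61 ± 0.15 (adjusted p = 0.0910), and Txnip, a regulator of glucose uptake and thioredoxin, by 0.38 ± 0.11 (adjusted p = 0.159). The groups overlapped at neither. With no normalization the differences were 0.041 for Rxra, 0.28 for Pnpla2 and 0.052 for Txnip, and with array brightness as a covariate Pnpla2 differed by 0.32 and Txnip by 0.13. The lipid droplet protein Plin2, a PPARA target, differed by −0.24 ± 0.15 (adjusted p = 0.582), −0.50 with no normalization and −0.11 with spike-in scaling.

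**Figure D5:**
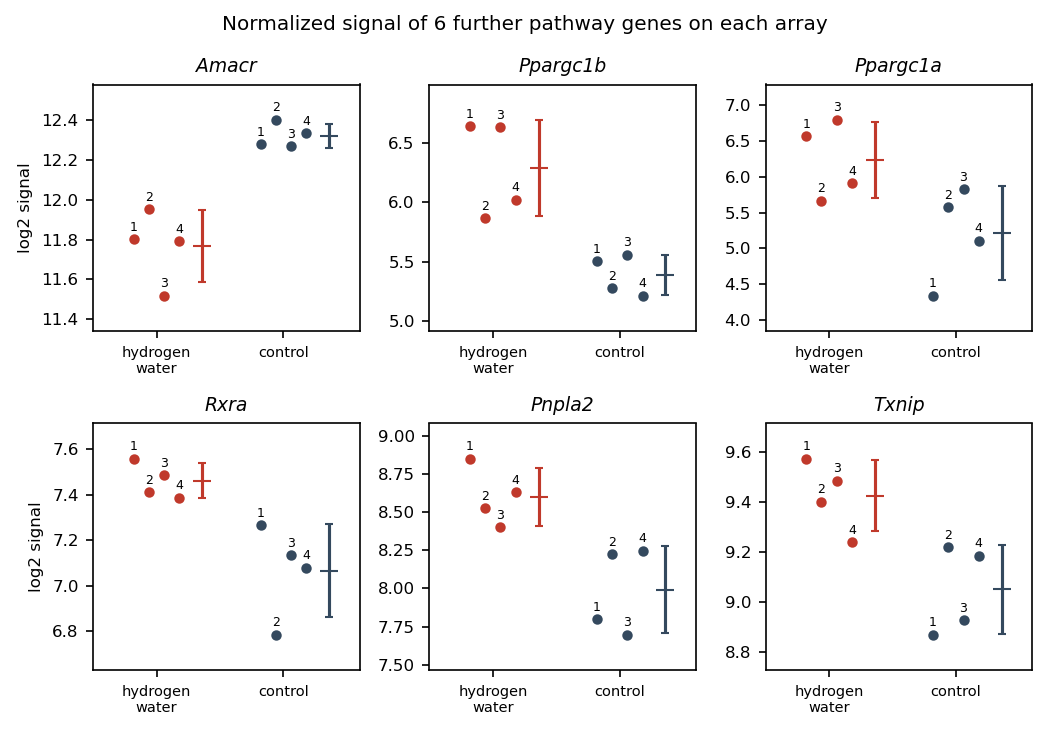
Normalized log2 signal (y axis, a separate scale for each gene) of 6 further pathway genes on the 4 hydrogen water arrays (red, left) and 4 control arrays (blue, right), with array numbers beside the points and the mean ± SD at the right of each group. Amacr is lower on all 4 hydrogen water arrays, and of the other 5, which did not pass, Ppargc1a overlaps between groups.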

How the data were processed

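Biotinylated cRNA was made from total liver RNA for Affymetrix arrays, per the labels' protocols. The deposited values are signal intensities on a linear scale made with MAS5, per the submitters' processing notes. The scaling target was not given in the sources used here. Array medians ran from 17.2 to 26.8, so the 31042 probe sets that are not controls were quantile-normalized, and log2(signal + 2.05) was taken, the pseudocount being 10% of the median of all values. This scale understates changes of dim probe sets. Gene names came from the platform annotation, and the symbols of all 39 members matched RefSeq by Entrez ID.

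The 15521 probe sets with a mean at or above the median were compared by limma's moderated test with a trended prior (limma 3.58.1, R 4.3.3), without covariates, with Benjamini-Hochberg adjustment over all of them and a threshold of 0.05. The steps were tested on simulated data. Array brightness, the Gapdh ratio and the spike-in signal were tested by permuting the array labels exactly, two-sided, over 70 arrangements. Promoters came from RefSeq, build GRCr8.

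The members, their roles, the further pathway list and the markers were chosen with earlier results of these data known. Values on each array are given for members with an unadjusted p under 0.05, the 2 with the largest absolute difference in each role group, and Ppara, Cpt1a, Ehhadh, Bdh1, Acat1, Fgf21, Pdk4 and Angptl4. Of the further list, genes past the threshold, the 4 with the smallest p, and Plin2, Ppargc1a and Rxra are named; some items are not reported here. Acot1, Acadm, Fabp1, Vnn1, Ncoa1, Med1, Rxrb and Ncor1 were given, or given in more detail, after their values were seen. Marker lists for stellate cells, cholangiocytes, skeletal muscle, exocrine pancreas, erythroid cells and lymphocytes were also checked, and 0 of their 10 tested genes passed in limma. Alternatives were other scalings, pseudocounts, filters, priors, array weights, a replicate block, array brightness as a covariate, gene means, a threshold of 0.10 and leaving out each array.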

Additional observations from a re-analysis of the deposited data

Results flagged for a closer look

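Over 92 groups of 4 arrays (46 genes), 2 held an array far from the rest of its group by Dixon's criterion, which flags about 1 in 20 groups by chance. Etfdh had a log2 signal of 10.64 on control array 2, while the other 3 controls lay between 10.51 and 10.52. Slc27a2 had a log2 signal of 12.60 on control array 3, while the other 3 controls lay between 12.71 and 12.72.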

How the results depend on the processing

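Calls over all probe sets numbered 128, against 505 with no normalization, 64 with no trend in the prior, 12 with array brightness as a covariate, 61 with gene means and 353 at a threshold of 0.10. Leaving out 1 array gave 55 to 197 calls: 61, 55 and 71 for hydrogen water arrays 1, 3 and 4, and 61, 197 and 58 for control arrays 2, 3 and 4. Of the calls, 53.9% were higher, against 4.16% with no normalization, 29.4% with median centring, 70.8% with spike-in scaling and 16.7% with brightness as a covariate. Members called numbered 1, against 2 with no normalization (Fgf21 and Pdk4), array weights or a threshold of 0.10 (Acot12 and Pex11a in both), 0 with no trend, brightness as a covariate or gene means, and 0 to 1 when an array was left out, that 1 being Pex11a in 3 cases and Acot12 without control array 2. Further pathway genes called numbered 1, against 0 with no trend or brightness as a covariate, 2 with the replicate block, 3 at a threshold of 0.10, and 0 to 2 when an array was left out. With no normalization the medians were −0.28 for all members, −0.37 for ketone, −0.31 for mitochondrial and −0.23 for peroxisomal members, −0.28 for PPARA targets and −0.33 for the further list. Spike-in scaling gave 0.083 for mitochondrial and 0.16 for peroxisomal members and 0.056 for the further list, and median centring −0.069 for the last. Signs turned for Acat1 (−0.21), Pex19 (−0.23) and Cd36 (−0.034) with no normalization, Eci1 (0.061) and Ehhadh (0.061) with spike-in scaling, Acat1 (−0.011) with brightness as a covariate and Eci1 (0.50) with gene means, which average in a probe set below the testing level. Leaving out an array gave −0.18 to 0.0057 for Eci1 and −0.21 to 0.12 for Ehhadh. The cause of the other changes was not tested. Whether arrays with the same number were paired is not labelled, so the main fit treated them as unpaired. The correlations of their deviations, −0.10, 0.04, 0.19 and −0.003, cannot settle it. With the replicate block 181 probe sets passed, and Pex11a (adjusted p = 0.0396), Amacr (adjusted p = 0.00953) and Ppargc1b (adjusted p = 0.0399) with them. Ppara, Fgf21, Ppargc1a and Ppargc1b were not tested with the filter leaving out 75%. The number of arrays limits the precision, and no detection calls were used, so which low signals exceed background is unknown.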

Other observations

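Of the further list, 44 tested genes carried a peroxisomal label, a broad one that also took in Mpv17, Abcd4, Acsl3 and Acsl5. Of these, 5 had lower signals with hydrogen water without overlap and 0 higher, against 3.63% and 3.85% of all tested probe sets. Over the 100 tested genes of the whole further list, 5 were lower and 4 higher without overlap. Its 34 tested genes labelled as PPARA partners or cytosolic, membrane and secreted genes held 4 higher and 0 lower. These counts were not tested. Among the 9 peroxisomal members 0 were lower and 1 higher. Amacr, 1 of the 5 lower genes, was described above. The others, chosen after their values were seen, were Phyh, the hydroxylase that starts the breakdown of phytanic acid, at −0.15 ± 0.05 (SE), Pecr, a trans-enoyl-CoA reductase, at −0.13 ± 0.05, Hao2, a hydroxy acid oxidase, at −0.12 ± 0.06, and the membrane biogenesis factor Pex3 at −0.19 ± 0.10. None of these 4 passed in limma, with adjusted p-values of 0.239, 0.351, 0.450 and 0.506. Their differences under other scalings are not given here. In the opposite direction the peroxisomal membrane protein Pxmp4 differed by 1.13 ± 0.46 (adjusted p = 0.330).

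Lpin1, a phosphatidate phosphatase that also acts as a coactivator of PPARA, had log2 signals of 11.57, 10.42, 10.95 and 10.47 with hydrogen water and 9.57, 9.35, 10.80 and 8.63 in controls, a difference of 1.26 ± 0.39 (SE, adjusted p = 0.195 in limma). Control array 3 lay among the hydrogen water arrays, and the gene passed without that array. Its relative Lpin2 differed by 0.49 ± 0.17 (adjusted p = 0.260).

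Of 13 members with more than 1 probe set, 13 further probe sets were tested, 9 with the sign of the chosen one and 4 with the other, and 0 passed in limma. The dimmer tested probe set of Hadha had signals of 6.34, 6.41, 6.18 and 6.27 with hydrogen water and 5.48, 5.72, 5.70 and 5.97 in controls. The groups did not overlap there, and the difference was 0.59 ± 0.14 (SE, adjusted p = 0.0824), while the chosen one differed by −0.02 ± 0.06.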
